A study of Mus musculus with 18 samples.

Results

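RNA from 4 of the 18 tumors of the series was compared here: 2 B16F10 tumors that received 2 doses of PBS and 2 that received 2 doses of exoCDN2 (0.1 µg each). B16F10 is a pigmented mouse melanoma line, grown here under the skin of C57BL/6 mice and injected directly (IT). exoCDN2 is the cyclic dinucleotide CDN2 (cAIM(PS)2 Difluor, called CL656 in the sample labels), an agonist of STING, loaded onto extracellular vesicles (EVs) purified from HEK293 cells that overexpress PTGFRN. Doses were 3 days apart, and the tumors were taken whole for RNA 24 h after the final dose. The other 14 tumors had PBS, unloaded EVs, exoCDN2 (0.1 µg) or CDN2 (20 or 100 µg) in 1 dose, CDN2 (20 µg) in 2 doses, or CL656 in 2 doses at an amount that the labels do not give. No group had 2 doses of unloaded EVs, so the effect of the vesicle and that of its cargo cannot be told apart after 2 doses. Nothing in the labels says whether the tumors of a group came from separately treated cohorts. The p-values rest on a spread shared by the 16 tumors of the 8 labelled groups, not on the 4 compared tumors alone, and measure no spread beyond these tumors.

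STING is an adaptor protein of the endoplasmic reticulum that is activated by cyclic dinucleotides, normally those made by cGAS upon contact with DNA in the cytosol. Activated STING recruits the kinase TBK1, which phosphorylates the transcription factor IRF3, and IRF3 turns on type I interferon. Secreted interferon acts on its receptor and, through the transcription factor complex ISGF3, induces a large set of interferon-stimulated genes, while interferon-γ from T and NK cells induces an overlapping set.

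The 4 libraries held 45497629 to 65983630 expected counts, within the range of 21608895 to 65983630 over the 18 tumors. Log2 levels of the 2 tumors of a group correlated at r = 0.992 (exoCDN2) and 0.989 (PBS) across genes, and 1.36% and 3.06% of genes differed by more than 2-fold within those pairs. The pair given 2 doses of CDN2 (20 µg) stood apart from the other pairs, with r = 0.961 and 14% of genes more than 2-fold apart. Markers of the melanocyte lineage, which check the tumor's identity, were abundant in all 4 tumors, with summed levels of 26406 and 28269 counts-per-million units (CPM) after exoCDN2 and 35489 and 37262 CPM after PBS.

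Injection of exoCDN2 on 2 occasions was followed by higher levels of 1501 genes and lower levels of 419 genes. These are 8.87% and 2.48% of the 16927 genes tested with edgeR (quasi-likelihood F-test, p-values adjusted by Benjamini-Hochberg), a call requiring both an adjusted p below 0.05 and a change of more than 2-fold. Errors given as ± after a log2 fold change are approximate standard errors (SE). Each is the size of the change divided by the square root of its F statistic. The higher genes changed by more than the lower genes: the median size of the change was 2.67 on the log2 scale for the former and 1.30 for the latter. More than 4-fold changes were found in 1033 higher genes and in 77 lower genes, and more than 16-fold changes in 347 and 17. Of the higher genes, 152 were at the floor of 3 counts per library in both PBS tumors. Of the lower genes, 18 were there in both exoCDN2 tumors. The size of such changes is poorly determined. The lower genes were on the other hand the more abundant in the controls, with a median of 12.5 CPM in the PBS tumors, falling to 4.61 CPM, against a rise from 1.20 to 7.65 CPM for the median higher gene. Over all genes tested the median was 13.4 CPM after PBS and 15.2 CPM after exoCDN2. The lower genes were thus near the usual level in the PBS tumors, and the higher genes were below it. The low PBS level of the higher genes follows in part from their selection. A gene could pass the count filter on its exoCDN2 tumors alone, and a low PBS level makes a call of higher more likely. In bulk tumor RNA, fewer cells of a type and less RNA per cell cannot be told apart, and the same holds for more of either. Of the called genes, 1370 higher (91.3%) and 359 lower genes (85.7%) code for proteins, against 85.6% of all genes tested.

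**Figure D1:**
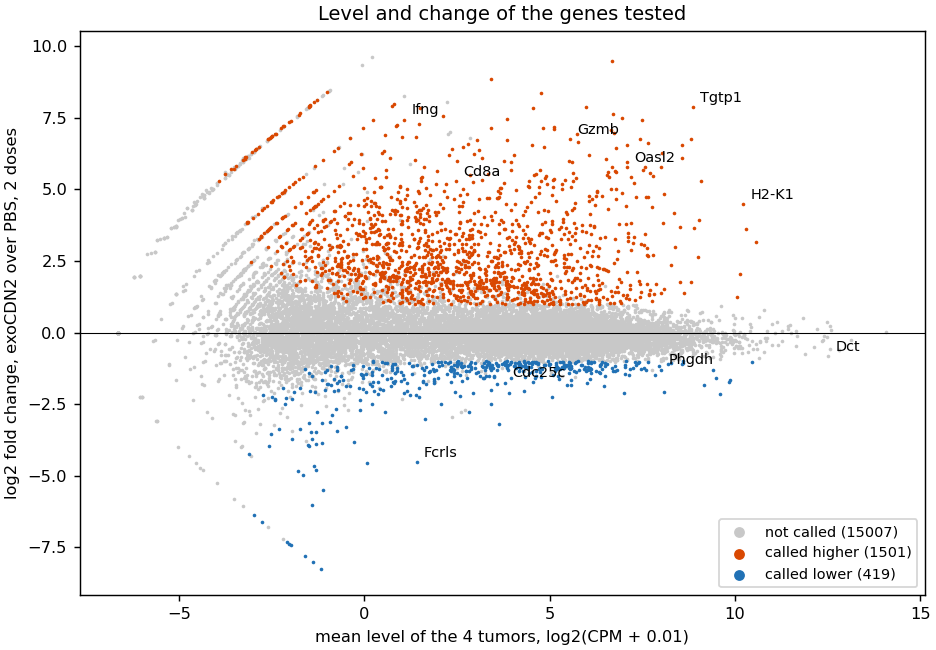
Each point is 1 of 16927 genes. The x axis gives the mean level of the 4 tumors as log2(CPM + 0.01) and the y axis the log2 fold change of exoCDN2 over PBS after 2 doses. Genes called higher (1501, orange) spread upward to a log2 fold change of 9.47, whereas most genes called lower (419, blue) lie close to the called limit and at mean levels from low to high; the diagonal streaks at the left are genes with few counts in 1 group.

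Both counts lean on single tumors. Without exoCDN2 tumor 1 the test called 786 higher and 116 lower genes, and without PBS tumor 2 it called 826 and 239. exoCDN2 tumor 1 was above exoCDN2 tumor 2 in 95.7% of the higher genes, by a median of 0.64 on the log2 scale, and above it in 12.4% of the lower genes. The control pair matters as well, as the PBS tumors after 2 doses had lower interferon-responsive genes than those after 1 dose (given with the other comparisons). With the PBS tumors after 1 dose as the control, 767 genes were called higher and 168 lower, of which 729 and 103 were among the genes called against PBS after 2 doses.

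The genes with the strongest evidence of a rise were interferon-stimulated genes. Oasl2 (ENSMUSG00000029561, chr5:114896936-114912234, GRCm38), an oligoadenylate synthetase-like antiviral protein, was at 313 and 221 CPM in the exoCDN2 tumors and 5.07 and 4.62 CPM in the PBS tumors (log2 fold change 5.78 ± 0.22, adjusted p = 1.13e-07). Usp18, the protease that removes ISG15 from proteins and restrains interferon signalling, was at 214 and 157 CPM against 3.88 and 3.65 CPM (log2 fold change 5.62 ± 0.25, adjusted p = 3.22e-07). Isg15, a ubiquitin-like modifier, was at 242 and 193 CPM against 4.35 and 4.51 CPM (log2 fold change 5.61 ± 0.28, adjusted p = 6.75e-07). In each of these genes both exoCDN2 tumors lay far above both PBS tumors, and exoCDN2 tumor 1 was the higher of its pair. Oas3, which makes the activator of RNase L, was at 257 and 140.3 CPM against 1.30 and 1.68 CPM, the steepest change of the 15 leading genes (133-fold; log2 fold change 7.06 ± 0.37, adjusted p = 6.75e-07). Irf7, the interferon regulatory factor that amplifies interferon production, was at 435 and 316 CPM against 6.89 and 6.85 CPM (log2 fold change 5.77 ± 0.31, adjusted p = 6.78e-07). Irf9, the DNA-binding part of the ISGF3 complex, changed least of the 15, from 17.9 and 16.6 CPM to 86.3 and 78.3 CPM (log2 fold change 2.26 ± 0.12, adjusted p = 6.75e-07). The other leading genes were Dtx3l, Rtp4, Phf11d, Irgm2, Xaf1, Trim12a, Oas1g, Oas1a and Parp10, with log2 fold changes of 3.03 (Parp10, a mono-ADP-ribosyltransferase) to 6.05 (Phf11d). Leading genes, and the genes of the largest changes given below, were chosen among genes whose 2 groups do not overlap. This held for 59.7% of all genes tested, in either direction, for 99.9% of the higher calls and for 100% of the lower calls. For a called gene, separation of the 2 groups thus adds little to the call.

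**Figure D2:**
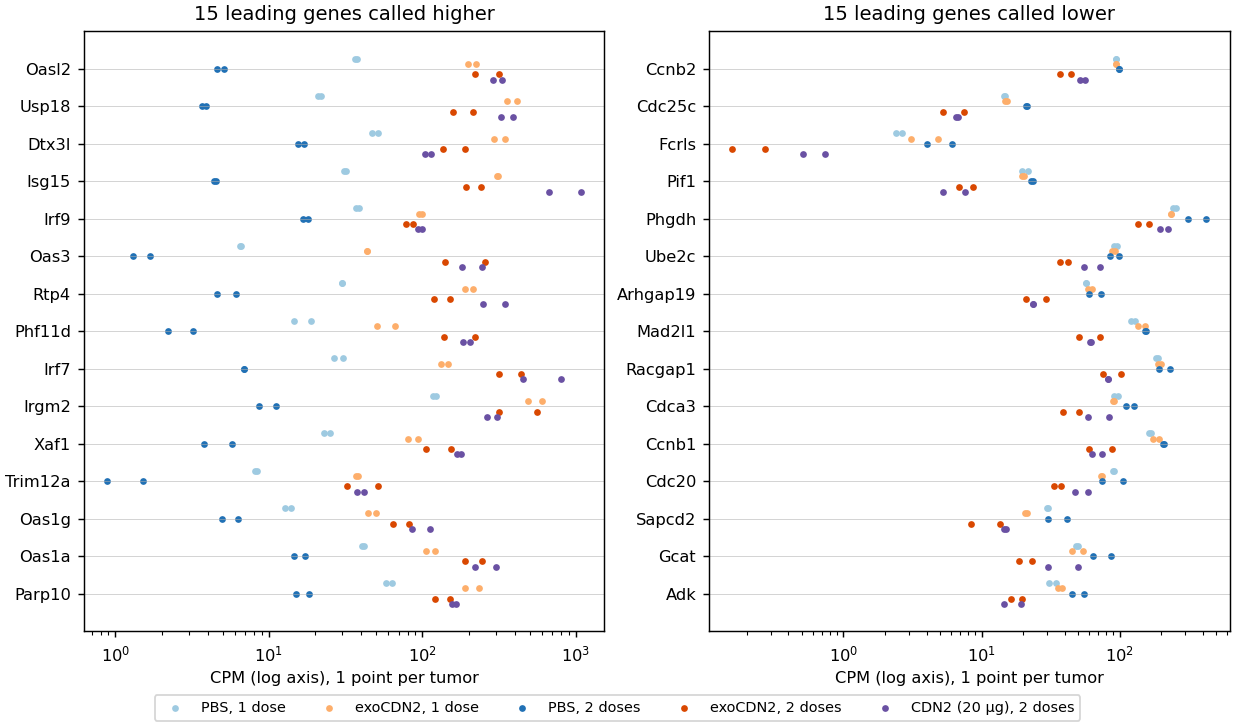
Levels of the 15 leading higher and the 15 leading lower genes by tumor, as CPM on a log axis, with 1 point per tumor and 1 colour per group, for PBS and exoCDN2 after 1 and 2 doses and CDN2 (20 µg) after 2 doses. After 2 doses each exoCDN2 tumor lies above each PBS tumor for the higher genes, such as Oasl2 (313 and 221 against 5.07 and 4.62 CPM), and below for the lower genes, such as Ccnb2 (37.1 and 44.1 against 98.7 and 99.6 CPM). The genes were chosen among those whose 2 groups do not overlap.

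All 35 members of the list of type I interferon-stimulated genes were called higher, with a median log2 fold change of 4.75 against 0.0064 over all genes tested. The lowest change was 2.26 and the highest 7.06. The count stayed at 35 without exoCDN2 tumor 1 or without PBS tumor 2, and was 34 with the PBS tumors after 1 dose as the control, where the median dropped to 2.40. Their summed level was 9459 and 6897 CPM in the exoCDN2 tumors, 539 and 397 CPM in the PBS tumors after 2 doses and 1831 and 1849 CPM in the PBS tumors after 1 dose. The exoCDN2 tumors were thus the highest on either control, and the 2 pairs of PBS tumors did not overlap.

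The promoters of these genes were inspected for the interferon-stimulated response element (ISRE), whose core is GAAA, 2 free bases and GAAA, and which is bound by interferon regulatory factors and ISGF3. Windows from 250 bases before to 50 bases after the start of transcription were taken from RefSeq on GRCm38.p6, and 1074 of the 1501 higher, 283 of the 419 lower and 11884 of the 16927 tested genes had at least 1 window. On either strand, the core was in 11.1% of the windows of higher genes, 2.68% of those of lower genes and 3.28% of those of all genes tested. It was in 41.9% of the windows of the type I interferon-stimulated genes (13 of 31) and in 58.8% of those of the interferon-γ-inducible GTPases and enzymes (10 of 17). Of the 12 leading higher genes with a window, 6 held it. The first 3 of these in order of p-value are shown, with the core in capitals. The windows lie at chr4:156200769-156201068 (Isg15, minus strand), chr5:120777610-120777909 (Oas3, minus strand) and chr11:58214727-58215026 (Irgm2, plus strand). Their first core began 78, 75 and 64 bases before the start.
Isg15: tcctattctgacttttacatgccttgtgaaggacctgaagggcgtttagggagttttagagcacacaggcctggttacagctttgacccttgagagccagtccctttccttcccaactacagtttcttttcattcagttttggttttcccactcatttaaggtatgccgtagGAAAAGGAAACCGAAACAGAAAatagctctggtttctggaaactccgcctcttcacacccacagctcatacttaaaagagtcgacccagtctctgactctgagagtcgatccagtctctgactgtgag
Oas3: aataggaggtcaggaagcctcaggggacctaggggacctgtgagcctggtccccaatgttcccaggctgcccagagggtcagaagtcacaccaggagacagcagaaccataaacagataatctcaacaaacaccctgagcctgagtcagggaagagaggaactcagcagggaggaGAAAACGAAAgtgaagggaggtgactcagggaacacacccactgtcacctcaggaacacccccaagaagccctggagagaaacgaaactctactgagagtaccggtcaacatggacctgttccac
Irgm2: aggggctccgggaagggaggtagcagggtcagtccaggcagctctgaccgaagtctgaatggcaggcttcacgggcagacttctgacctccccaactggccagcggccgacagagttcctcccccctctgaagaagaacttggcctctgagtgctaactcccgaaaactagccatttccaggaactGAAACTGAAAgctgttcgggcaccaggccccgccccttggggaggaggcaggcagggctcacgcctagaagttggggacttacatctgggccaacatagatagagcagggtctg
The Isg15 window held 3 cores that overlap each other, and the Oas3 and Irgm2 windows held 1 each. The M-box core CATGTG, a letter string bound by MITF in melanocytes, was in 12.8% of windows of higher genes, 10.4% of those of lower genes and 9.40% of all. These are counts of letters and say nothing of binding in these tumors.

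Interferon-γ-inducible genes rose as a group as well. All 21 members of the list of GTPases and enzymes, which also holds the transcription factors Irf1 and Irf8 and the signalling inhibitor Socs1, were called higher, at a median log2 fold change of 5.97. Irgm2 was at 553 and 316 CPM against 11.1 and 8.6 CPM (log2 fold change 5.46 ± 0.30, adjusted p = 6.78e-07). Gbp3 was at 300.2 and 236 CPM against 5.88 and 2.65 CPM (log2 fold change 5.97 ± 0.38, adjusted p = 1.76e-06), and no exoCDN2 tumor of either gene reached down to a PBS tumor. Igtp was at 981 and 526 CPM against 9.80 and 6.10 CPM (log2 fold change 6.57 ± 0.48, adjusted p = 6.14e-06). Its 2 exoCDN2 tumors were almost 2-fold apart, with tumor 1 the higher, as in all 21 members of the list. After 1 dose of PBS the same gene was at 203 and 241 CPM, above PBS after 2 doses and below exoCDN2. With that control 13 of the 21 members were called higher, at a median of 1.61, and with the 4 PBS tumors pooled 9 were. Immunity-related GTPases, guanylate-binding proteins and Oas genes have near-identical copies, among which RSEM divides shared reads, so that a single member's value is less certain than that of the family.

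Several of the largest changes were found in the same families. Among protein-coding genes of at least 5 CPM, the largest rises were those of Gbp10, Ubd, Gm43302, Gm12185, Tgtp1, Ifi208, Gm4841 and Apol9a. Gbp10 was at 308 and 103 CPM against 0.392 and 0.177 CPM (log2 fold change 9.47 ± 1.15, adjusted p = 0.000227), with exoCDN2 tumor 1 about 3-fold above tumor 2. Tgtp1, an interferon-inducible GTPase, was at 1186 and 679.7 CPM against 5.84 and 2.06 CPM (log2 fold change 7.88 ± 0.82, adjusted p = 6.43e-05), and the PBS tumors after 1 dose at 241 and 292 CPM. Ubd, the ubiquitin-like modifier FAT10, was at 30.8 and 11.8 CPM against 0.0413 and 0.0442 CPM. The PBS tumors held 4 counts of Ubd in all, so the ratio of 464 has a 95% counting interval of 181 to 1700. For Ifi208, which had 2 counts in the PBS tumors, the ratio was 257 (70.8 to 2130). These intervals cover counting error only, not the spread between tumors.

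Interferons themselves were scarce 24 h after the second dose. Of the 9 interferon and receptor genes tested, only Ifng was called, at 5.15 and 3.21 CPM in the exoCDN2 tumors and 0.0413 and 0 CPM in the PBS tumors, a ratio of 189 with a counting interval of 52.0 to 1560 on 2 counts in the PBS tumors. Ifng was at 0.949 and 1.56 CPM in the PBS tumors after 1 dose, and with those as the control it was not called. Ifnb1, the type I interferon induced first by STING, had 7 and 3 counts in the exoCDN2 tumors and 0 in both PBS tumors (adjusted p = 0.414). A count of 0 allows up to 0.0619 and 0.0663 CPM in these libraries. After 1 dose of exoCDN2 Ifnb1 had been at 24.1 and 20.1 CPM. The receptor chains had log2 fold changes from -0.31 (Il10rb) to 0.82 (Ifnar2), and none was past a ratio of 2.

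The STING pathway was mixed, with 5 of 15 members called higher and none lower, at a median of 0.66. The called members were the interferon-inducible DNA sensors Ifi203, Ifi204 and Aim2, the exonuclease Trex1, which degrades cytosolic DNA, and Samhd1, which depletes nucleotides. Ifi203 was at 213 and 152 CPM against 6.17 and 1.81 CPM (log2 fold change 5.51 ± 0.47, adjusted p = 1.60e-05), and Samhd1 at 265 and 174 CPM against 48.3 and 54.0 CPM (log2 fold change 2.10 ± 0.20, adjusted p = 3.46e-05). Both exoCDN2 tumors were above both PBS tumors in each. The central components moved less. Tmem173, which encodes STING, was at 93.3 and 79.3 CPM against 49.9 and 56.7 CPM (log2 fold change 0.70 ± 0.16, adjusted p = 0.00908), under a ratio of 2. Tbk1 was at 51.8 and 44.8 CPM against 34.9 and 26.3 CPM (log2 fold change 0.66 ± 0.14, adjusted p = 0.00757), likewise under the limit. Cgas was at 10.9 and 13.4 CPM against 10.2 and 9.11 CPM and Irf3 at 34.6 and 34.7 CPM against 38.4 and 45.8 CPM, and neither passed the test (adjusted p = 0.387 and 0.149).

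Most CXC and CC chemokines were higher. Of 27 chemokine genes tested, 19 were called higher and 1 lower, at a median of 2.89. Ccl5, which attracts T and NK cells, was at 219 and 205 CPM against 1.94 and 1.44 CPM (log2 fold change 6.97 ± 0.43, adjusted p = 1.73e-06). Cxcl9 was at 305 and 232 CPM against 3.53 and 2.12 CPM (log2 fold change 6.57 ± 0.47, adjusted p = 5.08e-06). Cxcl10 was at 354 and 266 CPM against 13.8 and 9.17 CPM (log2 fold change 4.75 ± 0.43, adjusted p = 2.42e-05). Cxcl9 and Cxcl10 are the interferon-induced ligands of CXCR3 on activated T cells. The exoCDN2 tumors were close to each other and well above PBS in these 3 genes. The neutrophil chemokine Cxcl2 was more uneven, at 24.6 and 6.17 CPM against 0.351 and 0.0442 CPM (log2 fold change 6.23 ± 1.22, adjusted p = 0.00451), with exoCDN2 tumor 1 about 4-fold above tumor 2. The single chemokine called lower was Ccl22, a ligand of CCR4 on regulatory T cells, at 0.590 and 0.597 CPM against 1.11 and 1.55 CPM (log2 fold change -1.16 ± 0.34, adjusted p = 0.0368). Fewer chemokines were called without single tumors: 11 higher without exoCDN2 tumor 1 and 8 without PBS tumor 2, with Ccl22 not called in either case or without exoCDN2 tumor 2. With PBS after 1 dose as the control 11 were higher.

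Interleukins and growth factors included 10 higher genes of 20 and no lower gene, at a median of 2.46. Il18bp, the soluble inhibitor of IL-18, was at 124 and 71.2 CPM against 2.35 and 1.72 CPM (log2 fold change 5.58 ± 0.48, adjusted p = 1.68e-05). Il18 itself was at 12 and 8.31 CPM against 2.35 and 1.5 CPM (log2 fold change 2.39 ± 0.33, adjusted p = 0.000537). Csf1, the macrophage growth factor, was at 70.3 and 41.6 CPM against 10.2 and 9.35 CPM (log2 fold change 2.51 ± 0.39, adjusted p = 0.00101). The groups did not overlap in these genes. The count was 7 without exoCDN2 tumor 1, 5 without PBS tumor 2 and 6 with PBS after 1 dose as the control.

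MHC class I presentation rose throughout, with all 18 members called higher at a median of 3.97. The list holds the class I chains, the peptide transporter TAP, the immunoproteasome and the transactivator Nlrc5. Tapbp, the tapasin chaperone, was at 583 and 404 CPM against 33.9 and 36.4 CPM (log2 fold change 3.81 ± 0.26, adjusted p = 3.95e-06), and Tap1 at 491 and 287 CPM against 14.3 and 14.6 CPM (log2 fold change 4.75 ± 0.39, adjusted p = 1.18e-05). H2-Q4, a class Ib chain, was at 315 and 185 CPM against 23.6 and 26.2 CPM (log2 fold change 3.33 ± 0.29, adjusted p = 1.64e-05), and every exoCDN2 tumor was above every PBS tumor in each of these genes. All 18 members were called without exoCDN2 tumor 1 and without PBS tumor 2, but the control pair weighed on this list. Tap1 was at 173 and 184 CPM in the PBS tumors after 1 dose, and with those as the control 6 of the 18 members were called, at a median of 1.09. H2 class I chains are also near copies of one another.

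MHC class II presentation rose less evenly. Of 12 members, 8 were called higher and none lower, at a median of 2.63. H2-DMb1, a chain of the peptide-loading factor H2-DM, was at 144 and 51 CPM against 7.05 and 8.53 CPM (log2 fold change 3.65 ± 0.55, adjusted p = 0.000871), and H2-DMa, the partner chain, at 88.6 and 20.4 CPM against 2.70 and 2.85 CPM (log2 fold change 4.29 ± 0.76, adjusted p = 0.00251). Ctss, the protease that trims the invariant chain, was at 418 and 268 CPM against 66.1 and 39.0 CPM (log2 fold change 2.71 ± 0.46, adjusted p = 0.00195). Both exoCDN2 tumors were above both PBS tumors, but tumor 1 exceeded tumor 2 about 3-fold in H2-DMb1 and 4-fold in H2-DMa. The PBS tumors after 1 dose had H2-DMa at 24.3 and 29.5 CPM, above exoCDN2 tumor 2. Only 4 members were called without exoCDN2 tumor 1, 3 without PBS tumor 2 and 1 against PBS after 1 dose.

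Lymphocyte genes rose from low levels. Of 21 T cell genes, 20 were called higher, at a median of 4.21, and of 14 NK cell genes all were, at a median of 4.39. Cd8a, the coreceptor of cytotoxic T cells, was at 12.1 and 9.70 CPM against 0.392 and 0.155 CPM (log2 fold change 5.29 ± 0.87, adjusted p = 0.00155). Cd3e, part of the T cell receptor complex, was at 3.83 and 2.52 CPM against 0.103 and 0.133 CPM (log2 fold change 4.72 ± 0.68, adjusted p = 0.000648). Klrc1, which encodes the NKG2A receptor of NK cells, was at 8.32 and 6.61 CPM against 0.247 and 0.155 CPM (log2 fold change 5.19 ± 0.55, adjusted p = 8.01e-05). In all 3 genes the exoCDN2 tumors were close to each other and every one of them was above the PBS tumors. The T cell gene that was not called was Cd4, at 0.905 and 0.882 CPM against 0.598 and 0.442 CPM (adjusted p = 0.551). T cell genes were also present after 1 dose of PBS, with Cd8a at 2.43 and 2.68 CPM, and with those tumors as the control 8 T cell and 9 NK cell genes were called. There were 18 T cell and 10 NK cell calls without exoCDN2 tumor 1, and 15 and 10 without PBS tumor 2. Klra and Klrc genes belong to families of near-identical members.

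Effector genes followed the same direction, with all 17 cytotoxic genes called higher at a median of 4.61. Gzmb, the granule protease that triggers apoptosis in target cells, was at 124 and 60.0 CPM against 1.07 and 0.619 CPM (108-fold; log2 fold change 6.76 ± 0.60, adjusted p = 2.14e-05). Prf1, the pore-forming perforin, was at 41.6 and 19.8 CPM against 0.619 and 0.575 CPM (log2 fold change 5.68 ± 0.56, adjusted p = 4.15e-05). Tnfsf10, which encodes the death ligand TRAIL, was at 19.5 and 13.3 CPM against 0.804 and 0.486 CPM (log2 fold change 4.66 ± 0.36, adjusted p = 8.80e-06). Levels of Gzmb and Prf1 in exoCDN2 tumor 1 were about 2-fold those in tumor 2, and neither overlapped PBS. Against PBS after 1 dose 16 of the 17 members were called, at a median of 2.85, and 14 and 11 were called without exoCDN2 tumor 1 and without PBS tumor 2. Gzmf and Gzmk had 3 and 1 counts in the PBS tumors, and their ratios were 161 (54.9 to 784) and 138 (24.4 to 5470).

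Checkpoint receptors and ligands included 13 higher genes of 15, at a median of 2.67. Lgals9, a ligand of TIM-3, was at 379 and 322 CPM against 51.1 and 59.6 CPM (log2 fold change 2.66 ± 0.16, adjusted p = 1.67e-06). Cd274, which encodes PD-L1, was at 198 and 86.8 CPM against 7.49 and 5.50 CPM (log2 fold change 4.46 ± 0.50, adjusted p = 0.000117). Pdcd1, which encodes the PD-1 receptor on T cells, was at 3.72 and 3.37 CPM against 0.165 and 0.111 CPM (log2 fold change 4.65 ± 0.65, adjusted p = 0.000564). No exoCDN2 tumor overlapped a PBS tumor in these genes, and Cd274 differed most within its pair. Ctla4 was at 1.38 and 1.28 CPM against 0.619 and 0.177 CPM (adjusted p = 0.0531) and Btla at 0.728 and 0.626 CPM against 0.825 and 0.486 CPM (adjusted p = 0.967). The number called was 9 without exoCDN2 tumor 1, 8 without PBS tumor 2 and 6 against PBS after 1 dose.

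**Figure D3:**
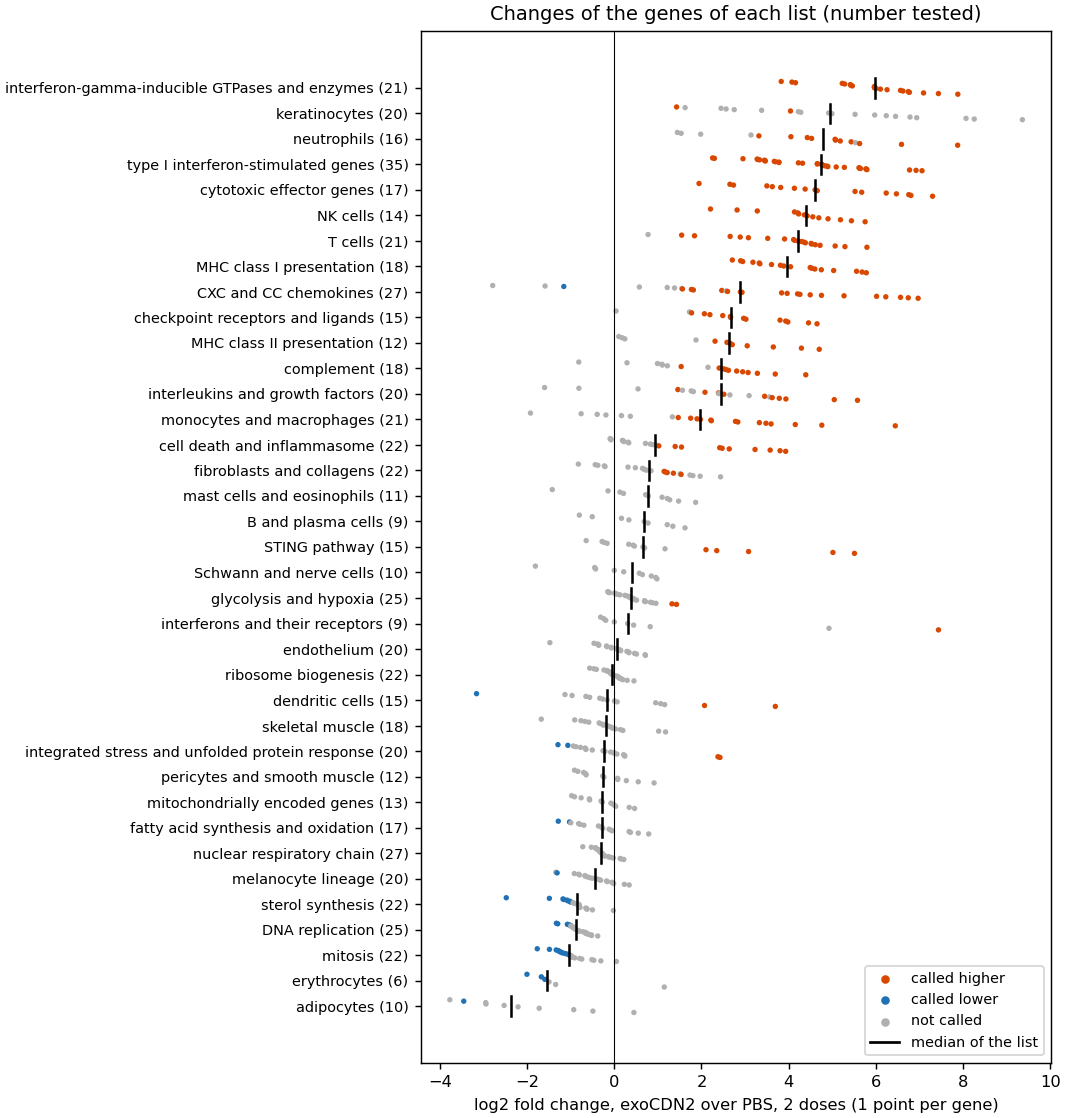
Log2 fold changes of exoCDN2 over PBS after 2 doses for the members of each gene list, 1 point per gene (orange, called higher; blue, called lower; grey, not called), with a bar at each list's median. The type I interferon-stimulated, interferon-γ-inducible, MHC class I, T cell, NK cell and cytotoxic lists lie to the right of 0 (medians 3.97 to 5.97). The mitosis, DNA replication and sterol synthesis lists lie to the left (medians -1.03 to -0.85). The list of interferons and their receptors had a median of 0.31. Neutrophil and keratinocyte genes had medians of 4.80 and 4.96, and adipocyte and erythrocyte genes -2.37 and -1.55.

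Among myeloid genes, 14 of 21 monocyte and macrophage genes were called higher, at a median of 1.98. Ly6c2, a marker of inflammatory monocytes, was at 274 and 162 CPM against 2.91 and 2.08 CPM (log2 fold change 6.45 ± 0.76, adjusted p = 0.000192). Fcgr1, the high-affinity IgG receptor, was at 108 and 60.0 CPM against 5.38 and 4.07 CPM (log2 fold change 4.15 ± 0.42, adjusted p = 5.62e-05), and the scavenger receptor Msr1 at 67.0 and 41.2 CPM against 7.51 and 3.25 CPM (log2 fold change 3.33 ± 0.42, adjusted p = 0.000271). The exoCDN2 tumors of these genes lay above PBS with tumor 1 the higher. Other members did not pass the test: Cd163, a receptor of resident macrophages, was at 0.826 and 0.270 CPM against 2.54 and 1.55 CPM (adjusted p = 0.078), and Mrc1 at 13.9 and 8.09 CPM against 25.8 and 11.3 CPM (adjusted p = 0.27). Their exoCDN2 and PBS tumors did not overlap in Cd163 and overlapped in Mrc1. Without exoCDN2 tumor 1, and also without PBS tumor 2, 9 members were called, and with PBS after 1 dose as the control 8 were higher and 2 lower.

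Neutrophil genes were called higher in 11 of 16 cases, at a median of 4.80, or 4.24 with genes at 0 in the PBS tumors set to their lower bound. Mmp8, the neutrophil collagenase, was at 12 and 5.86 CPM against 0.412 and 0.0663 CPM (log2 fold change 5.18 ± 0.86, adjusted p = 0.0016). Csf3r, the G-CSF receptor, was at 17.7 and 9.54 CPM against 1.4 and 1.33 CPM (log2 fold change 3.32 ± 0.58, adjusted p = 0.00223). S100a9, a subunit of calprotectin, was at 23.6 and 3.65 CPM against 0.227 and 0.0442 CPM (log2 fold change 6.59 ± 1.36, adjusted p = 0.00592). exoCDN2 tumor 1 exceeded tumor 2 in each of them, more than 6-fold in S100a9. The calls were sensitive to single tumors, with 5 members called without exoCDN2 tumor 1 and 3 without PBS tumor 2. Stfa2l1, with 0 counts in both PBS tumors, was at least 10.7-fold higher when compared with a floor of 3 counts per library.

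Dendritic cell genes had 2 members of 15 called higher and 1 lower (13.3% and 6.67%, against 8.87% and 2.48% of all genes tested), at a median of -0.17. The higher ones, Bst2 and Tlr3, are also interferon-stimulated genes. Cd209a, a C-type lectin of monocyte-derived dendritic cells, was at 0.0197 and 0.142 CPM against 0.866 and 0.729 CPM (log2 fold change -3.16 ± 0.95, adjusted p = 0.0387). It lost its call under 6 of 14 other settings, among them PBS after 1 dose as the control and leaving out exoCDN2 tumor 1 or either PBS tumor. The lineage markers Xcr1, Clec9a and Flt3 were all under 1 CPM in the 4 tumors and none was called. No member of the B and plasma cell list (0 of 9, median 0.69) or of the mast cell and eosinophil list (0 of 11, median 0.78) was called.

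Complement and cell death genes also rose in part. Of 18 complement genes, 11 were called higher, at a median of 2.46. C4b was at 555 and 273 CPM against 16.1 and 23.4 CPM (log2 fold change 4.39 ± 0.41, adjusted p = 2.87e-05), C1ra, a protease of the classical pathway, at 147 and 92.9 CPM against 12.8 and 15.8 CPM (log2 fold change 3.07 ± 0.29, adjusted p = 3.17e-05), and C3ar1, the receptor of C3a, at 126 and 74.4 CPM against 15.5 and 10.6 CPM (log2 fold change 2.95 ± 0.38, adjusted p = 0.000312). Of 22 cell death and inflammasome genes, 10 were called higher, at a median of 0.92. Mlkl, the executioner of necroptosis, was at 210.4 and 148 CPM against 36.4 and 30.8 CPM (log2 fold change 2.42 ± 0.22, adjusted p = 2.42e-05). Casp4, which senses cytosolic lipopolysaccharide, was at 37.7 and 26.7 CPM against 2.68 and 1.52 CPM (log2 fold change 3.93 ± 0.38, adjusted p = 3.55e-05), and its substrate Gsdmd, the pyroptotic pore, at 46.0 and 25.6 CPM against 3.11 and 2.87 CPM (log2 fold change 3.58 ± 0.37, adjusted p = 6.51e-05). These genes were separated between the groups in every tumor. Without exoCDN2 tumor 1 there were 9 complement and 5 cell death calls, and without PBS tumor 2 there were 8 and 6.

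**Figure D4:**
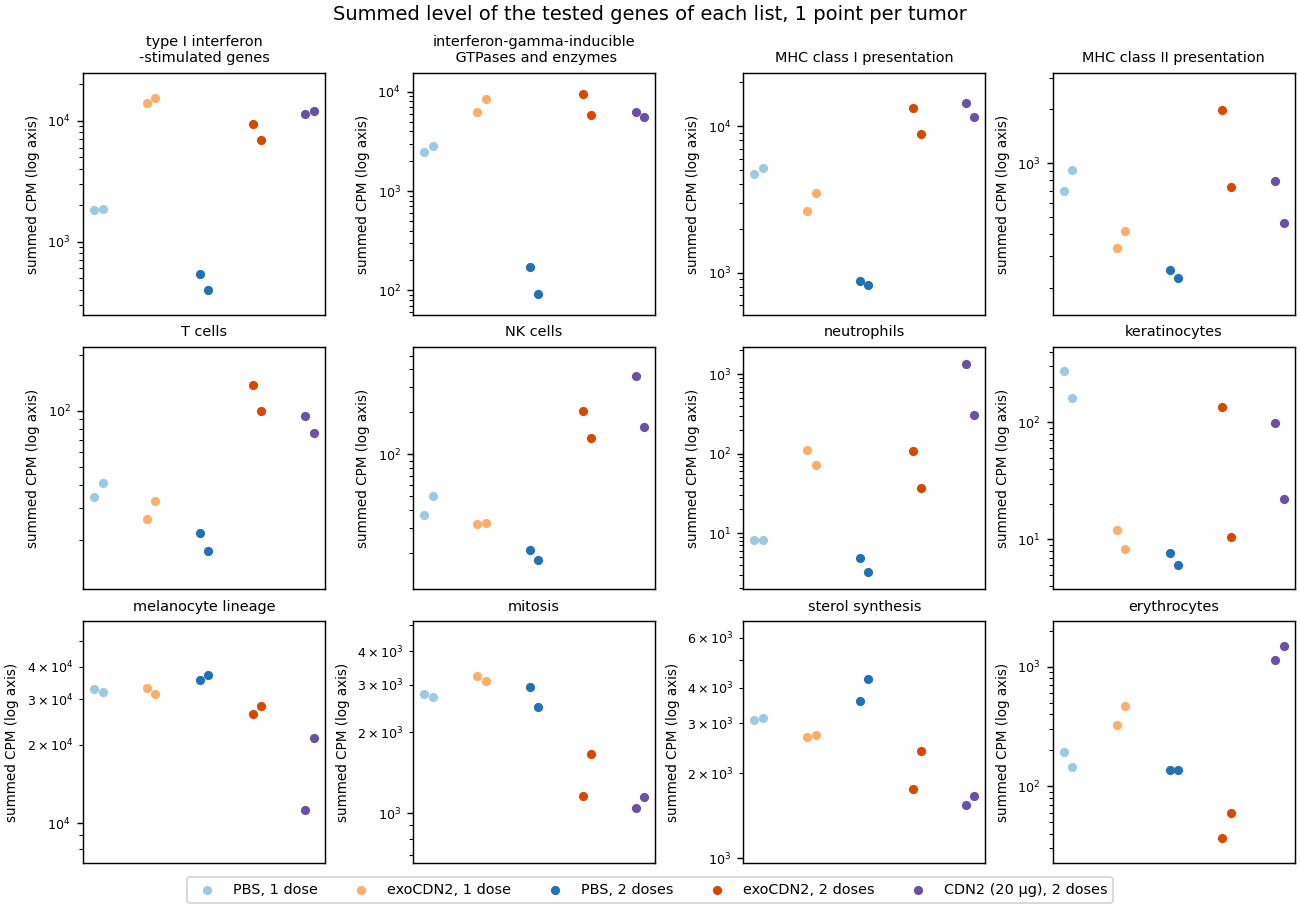
Summed CPM of the members of selected lists in each tumor, on a log axis that differs between panels, for PBS and exoCDN2 after 1 and 2 doses and for CDN2 (20 µg) after 2 doses (1 colour per group, 12 lists). The sum of type I interferon-stimulated genes was 9459 and 6897 CPM after 2 doses of exoCDN2, against 539 and 397 CPM after 2 doses of PBS and 1831 and 1849 CPM after 1 dose of PBS.

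The lower genes were led by genes of cell division. Of 22 mitosis genes, 12 were called lower and none higher, at a median of -1.03. Ccnb2 (ENSMUSG00000032218, chr9:70407692-70421547), a cyclin that drives entry into mitosis, was at 37.1 and 44.1 CPM in the exoCDN2 tumors and 98.7 and 99.6 CPM in the PBS tumors (log2 fold change -1.29 ± 0.13, adjusted p = 5.10e-05). Cdc25c, the phosphatase that activates CDK1, was at 5.23 and 7.41 CPM against 21.4 and 21.1 CPM (log2 fold change -1.75 ± 0.18, adjusted p = 5.76e-05). Ccnb1, the second B-type cyclin, was at 60.2 and 88.3 CPM against 208 and 209 CPM (log2 fold change -1.49 ± 0.18, adjusted p = 0.000259). In each gene both exoCDN2 tumors were below both PBS tumors, as the choice of leading genes required, with exoCDN2 tumor 1 the lower. Ube2c, the ubiquitin-conjugating enzyme of the anaphase-promoting complex, was at 36.8 and 42.6 CPM against 84.9 and 99.2 CPM (log2 fold change -1.21 ± 0.14, adjusted p = 0.000196), and Cdc20, its activator, at 33.7 and 37.8 CPM against 74.8 and 105 CPM (log2 fold change -1.33 ± 0.17, adjusted p = 0.000266). Mad2l1, Racgap1, Cdca3, Sapcd2, Arhgap19 and the DNA helicase Pif1 were the other cell cycle genes among the 15 leading lower genes, with log2 fold changes of -1.71 (Sapcd2) to -1.25 (Racgap1). The PBS tumors after 1 dose had Ccnb2 at 94.6 and 94.7 CPM, close to PBS after 2 doses, and with that control 6 mitosis genes were called lower, at a median of -0.97.

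The 10 mitosis genes that were not called included the most familiar proliferation markers, and in those markers the PBS tumors were far apart. Mki67, which encodes Ki-67, was at 52.5 and 110.0 CPM against 192 and 33.5 CPM (adjusted p = 0.636), so that PBS tumor 2 lay below both exoCDN2 tumors. Top2a was at 238 and 354 CPM against 551 and 294 CPM and Cenpf at 32.3 and 49.7 CPM against 85.2 and 16.4 CPM. All of these overlapped between the groups. In PBS tumor 2 relative to PBS tumor 1, Mki67, Cenpe and Cenpf had log2 ratios of -2.52 to -2.33, whereas Ccnb1 and Ccnb2 had 0.01. Mki67, Cenpe and Cenpf have long exon sequences (10061, 8620 and 15433 bases), and Ccnb1 and Ccnb2 shorter ones (4217 and 1531 bases). The replication gene Pole, of 11160 bases, had a log2 ratio of 0.30. The part of transcript length in this difference was not tested. Without PBS tumor 1 the mitosis list had 13 lower and 2 higher calls, and without exoCDN2 tumor 1 it had 7 lower calls and none higher. The number was 11 without PBS tumor 2 and 15 without exoCDN2 tumor 2.

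DNA replication genes were lower on a smaller scale. All 25 had a log2 fold change below 0, at a median of -0.88, and 5 were called lower. Tyms, which makes thymidylate, was at 27.3 and 37.1 CPM against 73.6 and 84.9 CPM (log2 fold change -1.30 ± 0.19, adjusted p = 0.00072). Tk1, thymidine kinase, was at 44.8 and 74.1 CPM against 130.3 and 168 CPM (log2 fold change -1.33 ± 0.25, adjusted p = 0.00322), and Pcna, the sliding clamp of the replication fork, at 212 and 301 CPM against 457 and 571 CPM (log2 fold change -1.0 ± 0.19, adjusted p = 0.00364). The exoCDN2 tumors were below PBS in all of them, with tumor 1 the lower. Pcna lay at the limit of 2-fold and lost its call under 8 of 14 other settings. The count of lower genes ranged from 2 without exoCDN2 tumor 1 and 3 without PBS tumor 2 to 10 without PBS tumor 1 and 17 without exoCDN2 tumor 2, and was 2 with PBS after 1 dose as the control.

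Promoters of cell cycle genes of late phases often combine CCAAT boxes with the cell cycle genes homology region (CHR, TTTGAA), through which the DREAM complex and the MuvB core act. These motifs were added after the values had been seen. CCAAT was in 48.5% of the windows of lower genes, 33.5% of those of higher genes and 37.4% of all tested, and CHR in 19.6%, 16% and 12.7%, on either strand. In the mitosis list 15 of 17 windows (88.2%) held CCAAT and 12 (70.6%) held CHR, and all 12 of the latter held both. Of the 13 leading lower genes with a window, 10 held CCAAT and 6 held CHR. The first 3 leading lower genes with both are shown with both motifs in capitals, at chr9:70421505-70421804 (Ccnb2, minus strand), chr2:164769679-164769978 (Ube2c, plus strand) and chr19:41802035-41802334 (Arhgap19, minus strand), GRCm38.p6.
Ccnb2: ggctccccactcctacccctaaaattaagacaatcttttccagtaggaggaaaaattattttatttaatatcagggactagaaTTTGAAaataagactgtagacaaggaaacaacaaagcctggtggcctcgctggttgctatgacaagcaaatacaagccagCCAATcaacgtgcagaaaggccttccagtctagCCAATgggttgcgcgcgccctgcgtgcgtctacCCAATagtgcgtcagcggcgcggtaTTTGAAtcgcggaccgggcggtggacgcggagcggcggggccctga
Ube2c: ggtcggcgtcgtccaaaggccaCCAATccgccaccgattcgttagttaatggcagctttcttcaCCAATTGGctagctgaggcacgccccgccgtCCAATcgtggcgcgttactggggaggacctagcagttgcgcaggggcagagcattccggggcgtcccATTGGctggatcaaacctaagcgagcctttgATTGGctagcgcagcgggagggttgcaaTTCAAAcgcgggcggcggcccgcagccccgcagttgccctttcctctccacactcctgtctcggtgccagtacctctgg
Arhgap19: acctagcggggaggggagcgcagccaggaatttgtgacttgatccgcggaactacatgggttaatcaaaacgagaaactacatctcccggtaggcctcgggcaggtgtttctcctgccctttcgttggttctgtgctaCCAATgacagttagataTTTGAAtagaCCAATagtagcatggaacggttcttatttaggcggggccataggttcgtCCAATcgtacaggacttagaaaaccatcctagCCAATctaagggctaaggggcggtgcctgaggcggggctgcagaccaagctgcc
Ube2c also shows both motifs on the opposite strand, where CCAAT reads ATTGG and CHR reads TTCAAA. The mitosis windows were counted for all members of the list with a window, called or not.

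**Figure D5:**
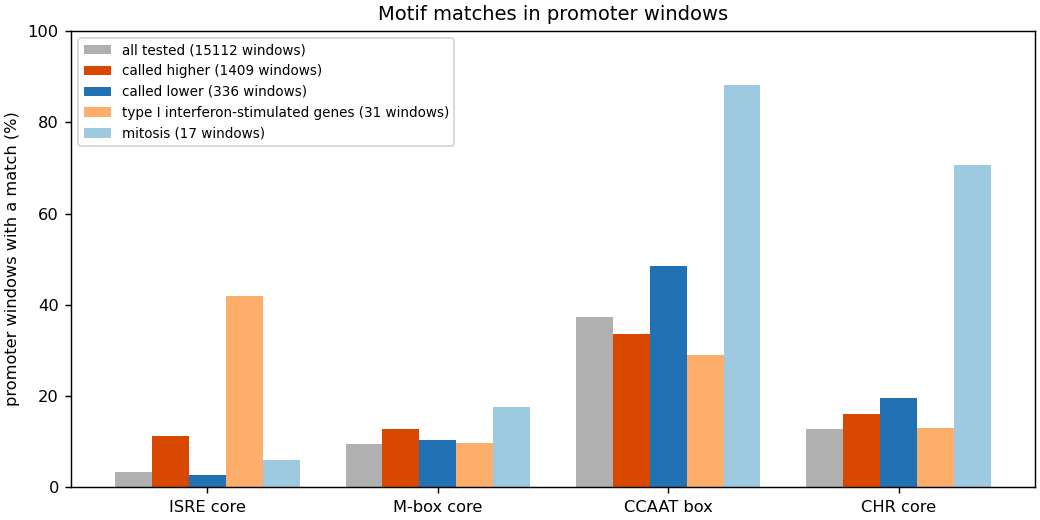
Percent of 300-base promoter windows that hold a motif on either strand, for all tested genes (15112 windows), genes called higher (1409), genes called lower (336), the type I interferon-stimulated genes (31) and the mitosis genes (17). The ISRE core is most frequent in the interferon list (41.9%) and the CCAAT box and CHR core in the mitosis list (88.2% and 70.6%).

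Enzymes of amino acid and nucleoside metabolism were also among the leading lower genes. Phgdh, the entry enzyme of serine synthesis, was at 137 and 163 CPM against 312 and 422 CPM (log2 fold change -1.29 ± 0.15, adjusted p = 0.000191). Psat1, the next enzyme of that pathway, was at 99.0 and 116 CPM against 223 and 226 CPM (log2 fold change -1.07 ± 0.14, adjusted p = 0.000297). Gcat, which breaks threonine down to glycine, was at 18.6 and 23.3 CPM against 63.9 and 86.7 CPM (log2 fold change -1.84 ± 0.23, adjusted p = 0.000271), and Adk, adenosine kinase, at 16.3 and 19.7 CPM against 45.4 and 54.9 CPM (log2 fold change -1.48 ± 0.19, adjusted p = 0.000271). All exoCDN2 tumors were below all PBS tumors in these 4 genes. With PBS after 1 dose as the control (Phgdh 243 and 257 CPM), Phgdh, Psat1 and Adk were no longer called. Phgdh and Psat1 belong to the list of the integrated stress and unfolded protein response, whose median was -0.24. In it 2 of 20 members were called lower and 2 higher (10% each, against 2.48% and 8.87% of all genes tested). The higher ones were the stress transcription factors Ddit3, at 132 and 95.7 CPM against 23.6 and 20.1 CPM (log2 fold change 2.38 ± 0.29, adjusted p = 0.000256), and Atf3, at 54.9 and 29.0 CPM against 8.02 and 7.60 CPM (log2 fold change 2.42 ± 0.42, adjusted p = 0.00228).

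All 22 sterol synthesis and uptake genes had a log2 fold change below 0, at a median of -0.85, and 8 were called lower. Lss, lanosterol synthase, was at 39.2 and 60.7 CPM against 96.4 and 129.8 CPM (log2 fold change -1.18 ± 0.20, adjusted p = 0.00211). Insig1, the sterol-sensing anchor of SREBP processing, was at 89.9 and 149.5 CPM against 312 and 360.3 CPM (log2 fold change -1.49 ± 0.26, adjusted p = 0.00223). Fdps, which makes farnesyl pyrophosphate, was at 224 and 261 CPM against 435 and 591 CPM (log2 fold change -1.08 ± 0.19, adjusted p = 0.00232). exoCDN2 tumor 1 was the lowest of the 4 tumors in each. The list had 2 lower calls without exoCDN2 tumor 1, 3 without PBS tumor 2, 14 without PBS tumor 1, 14 without exoCDN2 tumor 2 and 2 with PBS after 1 dose as the control. Of 17 genes of fatty acid synthesis and oxidation only the desaturases Scd1 and Scd2 were called, both lower. Scd1 was at 78.2 and 127 CPM against 199 and 301 CPM (log2 fold change -1.29 ± 0.27, adjusted p = 0.00596), and neither was called without exoCDN2 tumor 1 or with PBS after 1 dose as the control.

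Melanocyte lineage genes leaned lower but mostly by less than the limit. Of 20 members, 18 had a log2 fold change below 0, at a median of -0.45, and 1 was called: Kit, the receptor of stem cell factor, at 5.51 and 6.83 CPM against 17.0 and 13.7 CPM (log2 fold change -1.31 ± 0.30, adjusted p = 0.0103). Kit was not called without PBS tumor 1 or without exoCDN2 tumor 1. Dct, dopachrome tautomerase of melanin synthesis, was at 4104 and 4374 CPM against 7199 and 7745 CPM (log2 fold change -0.82 ± 0.12, adjusted p = 0.000919), a shift that passed the test on p but not the ratio of 2. Mlana was at 480.5 and 440.4 CPM against 703 and 766 CPM (log2 fold change -0.67 ± 0.12, adjusted p = 0.0025), also under that limit. The exoCDN2 tumors were below the PBS tumors in these 3 genes. Mitf, the lineage transcription factor, was at 524 and 598 CPM against 515 and 370.5 CPM (adjusted p = 0.584), and Sox10 at 548 and 468 CPM against 424 and 602 CPM (adjusted p = 0.985). Whether the share of tumor cells, the RNA of other cells or levels per cell changed cannot be told apart here.

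The largest falls were not of one kind. Fcrls, an Fc receptor-like gene of resident macrophages and microglia, was at 0.157 and 0.270 CPM against 6.12 and 4.04 CPM, 23-fold lower (log2 fold change -4.53 ± 0.53, adjusted p = 0.000167). Cd209f, a C-type lectin, was at 0.964 and 0.412 CPM against 4.23 and 6.67 CPM (log2 fold change -3.00 ± 0.72, adjusted p = 0.013). Dhrs2, a short-chain dehydrogenase, was at 1.83 and 3.03 CPM against 20.7 and 24.0 CPM (log2 fold change -3.19 ± 0.48, adjusted p = 0.000905). Both exoCDN2 tumors were below both PBS tumors in all of them, which the rule for choosing them required. The PBS tumors after 1 dose were at 2.38 and 2.68 CPM for Fcrls, between those groups, and at 8.17 and 8.49 CPM for Dhrs2. Cd209f was not called with PBS after 1 dose as the control, without PBS tumor 2 or without exoCDN2 tumor 2. Fam81a, Fndc4, the secreted phospholipase Pla2g3 and the LIM-only factor Lmo1 were also among the 8 largest falls of at least 5 CPM, with log2 fold changes of -2.76 (Fam81a) to -2.11 (Lmo1). Fam81a, Pla2g3 and Lmo1 were not called with PBS after 1 dose as the control, and Lmo1 was not called without PBS tumor 2 or without exoCDN2 tumor 1.

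Further lists showed few or no calls. None of the 22 ribosome biogenesis genes (median -0.04), the 27 nuclear respiratory chain genes (-0.30), the 13 mitochondrially encoded genes (-0.28), the 20 endothelial genes (0.07), the 12 pericyte and smooth muscle genes (-0.25), the 18 skeletal muscle genes (-0.20) or the 10 Schwann and nerve cell genes (0.40) was called. Of 25 glycolysis and hypoxia genes, Car9 and Adm were called higher, at a median of 0.38 for the list. This share of 8.0% is no larger than the 8.87% of all genes tested. Car9, a hypoxia-induced carbonic anhydrase, was at 199 and 191 CPM against 69.4 and 86.5 CPM (log2 fold change 1.32 ± 0.35, adjusted p = 0.0213), but the PBS tumors after 1 dose were at 222 and 193 CPM, which overlapped with exoCDN2. Neither gene was called without exoCDN2 tumor 1, without PBS tumor 2 or with PBS after 1 dose as the control. Of 22 fibroblast and collagen genes, 5 were called higher, at a median of 0.79, among them Fbn1, the microfibril protein fibrillin, at 55.0 and 25.9 CPM against 14.9 and 16.7 CPM (log2 fold change 1.36 ± 0.33, adjusted p = 0.0132). No member was called without exoCDN2 tumor 1 or without PBS tumor 2, 2 were higher without PBS tumor 1, 9 without exoCDN2 tumor 2 and 3 with PBS after 1 dose as the control.

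Genes of tissues around the tumor differed between single tumors. Keratinocyte genes, which mark skin, summed to 135 and 10.5 CPM in the exoCDN2 tumors, 7.59 and 6.08 CPM in the PBS tumors and 272 and 160.2 CPM in the PBS tumors after 1 dose. exoCDN2 tumor 1 thus held more than the other 3 tumors. Calls of higher were few in this list, at 10% of its genes against 8.87% of all genes tested. In the keratinocyte list 2 of 20 genes, Dsp and Lgals7, were called higher, at a median of 4.96 (4.25 with genes at 0 in the PBS tumors set to their bound), and without exoCDN2 tumor 1 no gene was called and the median was -0.81. No gene was called without either PBS tumor, whereas 9 were without exoCDN2 tumor 2. In exoCDN2 tumor 2 and PBS tumor 2 the defining keratins Krt5 and Krt14 were at 0. The part of skin in the values of exoCDN2 tumor 1 was not tested. Of 6 erythrocyte genes, 3 were called lower, at a median of -1.55, with summed levels of 36.5 and 59.2 CPM against 136 and 136 CPM, and no member was called without exoCDN2 tumor 1 or without either PBS tumor. Of 10 adipocyte genes only Plin1, the lipid droplet coat protein, was called, at 0.0590 and 0.0569 CPM against 0.268 and 1.06 CPM (log2 fold change -3.45 ± 1.01, adjusted p = 0.0348), and the list had a median of -2.37. Plin1 was not called without PBS tumor 2 or without either exoCDN2 tumor. Summed adipocyte levels were 34.3 and 30.2 CPM against 53.1 and 60.7 CPM, which overlapped in range with the PBS tumors after 1 dose (30.4 and 49.0 CPM).

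To see whether the response after 2 doses differed from that after 1, the change against PBS after 2 doses was tested against the change after 1 dose in the same model. This comparison uses the same PBS tumors as those above. At the same limits of adjusted p and ratio, the difference was called higher for 866 genes and lower for 288 genes, 5.12% and 1.70% of those tested. Oasl2 was at 197 and 224 CPM after exoCDN2 once, against 37.3 and 36.2 CPM in the PBS tumors of that time, and its log2 difference between the changes was 3.26 ± 0.26 (SE), adjusted p = 0.000562. Its exoCDN2 levels overlapped between 1 and 2 doses, while its PBS level was lower after 2 doses. Cd8a was at 0.180 and 0.929 CPM after exoCDN2 once, below the PBS tumors of that time (2.43 and 2.68 CPM), and above PBS after 2 doses (difference 7.51 ± 1.16 (SE), adjusted p = 0.00277). Prf1 was at 1.16 and 1.51 CPM after 1 dose, also below its PBS tumors at 3.44 and 3.82 CPM (difference 7.12 ± 0.72 (SE), adjusted p = 0.000562). Both genes lay below PBS after 1 dose and above it after 2. Cxcl10 was at 2584 and 2532 CPM after 1 dose, above its level after 2 doses, and its log2 difference was -0.36 ± 0.52 (SE), adjusted p = 0.756. Ccnb2 was at 93.6 and 93.4 CPM after exoCDN2 once, beside 94.6 and 94.7 CPM for PBS (difference -1.27 ± 0.18 (SE), adjusted p = 0.00194). Medians of the difference were 4.61 for the T cell list (19 of 21 called higher) and 4.28 for MHC class I (18 of 18). They were 1.64 for the type I interferon-stimulated genes (20 of 35 called higher) and -1.14 for mitosis (11 of 22 called lower). The type I interferon-stimulated genes summed to 13920.4 and 15443 CPM after 1 dose of exoCDN2 and to the lower 9459 and 6897 CPM after 2, and the median fall of the list in PBS between the doses (-2.08) was larger than its median difference. Leaving out single tumors gave 392 to 982 higher and 91 to 375 lower genes, and each of the 4 tumors given 1 dose, as well as exoCDN2 tumor 1 after 2 doses, lowered both counts by over 1.5 times. Leaving out PBS tumor 2 after 2 doses did so for the higher genes, to 546.

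The PBS tumors themselves differed between 1 and 2 doses. Of the genes tested, 8 (0.0473%) were called higher and 178 (1.05%) lower after 2 doses of PBS than after 1. Tap1 was at 14.3 and 14.6 CPM after 2 doses and 173 and 184 CPM after 1 dose (log2 -3.63 ± 0.37 (SE), adjusted p = 0.000478), and Oasl2 was at 5.07 and 4.62 CPM against 37.3 and 36.2 CPM (log2 -2.92 ± 0.20 (SE), adjusted p = 7.61e-05). The 2 pairs did not overlap in either gene. Among the type I interferon-stimulated genes 29 of 35 were called lower after 2 doses, at a median of -2.08. The count was 17 of 21 (-3.92) among the interferon-γ-inducible GTPases and enzymes and 16 of 18 (-2.72) among MHC class I genes. No mitosis, sterol synthesis or melanocyte gene was called lower. At the median, the interferon-responsive and MHC class I lists rose by more against PBS after 2 doses than against PBS after 1 dose, as given above. PBS after 2 doses matches exoCDN2 after 2 doses in the number of doses, and PBS after 1 dose does not. Any effect of the number of doses or of time thus enters the comparison with PBS after 1 dose. Leaving out 1 tumor gave 2 to 7 higher and 83 to 367 lower genes, the extremes of the latter without PBS tumor 2 and without PBS tumor 1 after 2 doses. Without PBS tumor 2 after 1 dose 108 were lower, and the number of higher genes was 2 without any 1 of the 4 PBS tumors other than tumor 1 after 2 doses. Days since implantation and the number of injections cannot be told apart in these groups.

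Free CDN2 was the other treatment given in 2 doses with a labelled amount, which was 20 µg against 0.1 µg for exoCDN2, so that the amounts differ. Of the genes tested, 1242 (7.34%) were called higher and 2037 (12.0%) lower with exoCDN2 than with CDN2. Among the leading interferon-stimulated genes, Oasl2 was at 313 and 221 CPM with exoCDN2 and 287 and 329 CPM with CDN2 (log2 difference -0.21 ± 0.18 (SE), adjusted p = 0.373). Isg15 was at 242 and 193 CPM against 1072 and 671 CPM (-2.0 ± 0.24 (SE), adjusted p = 0.00102), lower with exoCDN2 in both tumors. Cd8a was at 12.1 and 9.70 CPM against 2.05 and 2.12 CPM (2.38 ± 0.74 (SE), adjusted p = 0.0269), and Ciita, the transactivator of class II genes, at 31.1 and 8.49 CPM against 0.739 and 1.77 CPM (3.90 ± 0.88 (SE), adjusted p = 0.00712). Both were higher with exoCDN2 in every tumor. S100a9 was at 23.6 and 3.65 CPM against 484 and 107 CPM (-4.44 ± 1.01 (SE), adjusted p = 0.00743) and Cxcl2 at 24.6 and 6.17 CPM against 1553 and 206 CPM (-5.84 ± 1.01 (SE), adjusted p = 0.00249), both lower with exoCDN2 in every tumor. By list, 15 of 16 neutrophil genes (median -3.85), 14 of 27 chemokine genes (-1.61) and 5 of 6 erythrocyte genes (-4.57) were called lower with exoCDN2. Called higher were 6 of 12 MHC class II genes (2.08) and 6 of 21 T cell genes (1.21). Of 18 skeletal muscle genes, 13 were called lower with exoCDN2 (median -3.81). That list summed to 303 and 314 CPM with exoCDN2 and 6475 and 3446 CPM with CDN2. The part of surrounding tissue in this comparison was not tested. Melanocyte genes summed to 11310.3 and 21296 CPM in the CDN2 pair. The counts hung on single tumors of that divergent pair: without CDN2 tumor 1 they were 271 higher and 752 lower, without CDN2 tumor 2 they were 3172 and 3085, and without exoCDN2 tumor 2 they were 544 and 797.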

How the data were processed

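RNA of 18 whole B16F10 tumors was sequenced. The authors filtered the reads, aligned them to GRCm38 with OSA (OmicSoft ArraySuite) and quantified them against Ensembl gene models in RSEM, and its expected counts were deposited without normalization. Whether counting used strand is not given in the sources used here, so overlapping genes on opposite strands cannot be told apart. The values were rounded to whole numbers. Genes were kept by edgeR's filterByExpr (minimum count 10, minimum total 15), which left 16927 of 50600. edgeR 4.0.16 (R 4.3.3) fitted quasi-likelihood models with TMM factors to the 16 tumors of the 8 labelled groups, so that they share 1 estimate of the spread (8 residual degrees of freedom, common biological coefficient of variation 0.22). With 2 tumors against 2, an exact permutation test cannot go below p = 0.333, and tests rest on that shared spread. The limits of adjusted p and ratio follow the study, whose tool, DESeq2 (1.42.0 here), served as an alternative. CPM are TMM-scaled, errors of log2 fold changes are approximate SE derived from the F statistic, intervals are 95% exact and the floor is 3 counts.

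Tumors were grouped by their labels, and tumor numbers are the replicate numbers there. Same-numbered tumors were not known to share an origin, so they were not treated as pairs. The 2 tumors with no amount in their labels entered no test.

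The comparison and the gene lists were chosen with earlier results of these data known. Named genes are the 15 called higher and the 15 called lower with the smallest p-values among protein-coding genes whose groups do not overlap, the 8 largest changes in each direction among those of at least 5 CPM, up to 3 genes called per list and direction, and any member of the melanocyte, STING, interferon and marker lists. Cxcl2, Ciita, Nlrc5, Ctla4, Btla, Gzmf, Gzmk, Mki67, Top2a, Cenpe and Cenpf were chosen after their values were seen, and 1 gene that the rule names is not reported here. Alternatives were other scaling factors, no filter, DESeq2, other sets of tumors, other controls, other limits on the ratio, the replicate block and leaving out each tumor.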

Additional observations from a re-analysis of the deposited data

Results flagged for a closer look

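For 28 of the 30 leading genes, the change of exoCDN2 against PBS differed between 2 doses and 1 dose by more than 2-fold and past an adjusted p of 0.05 in the interaction test in edgeR (Benjamini-Hochberg adjustment over all genes). Irf9 passed on p but not on the 2-fold limit (0.89, adjusted p = 0.00553), and Dtx3l passed neither (0.64, adjusted p = 0.0963). The 30 genes were chosen by their p-value for the change after 2 doses, which is a term of this difference. The count of 28 is therefore no independent result. Over all genes tested, the difference was called higher in 5.12% and lower in 1.70%. It was called higher in 46.6% of the genes called higher after 2 doses, and lower in 48.4% of those called lower. The log2 difference (2 doses minus 1 dose) was 3.26 for Oasl2, 1.46 for Usp18, 2.31 for Isg15, 4.33 for Oas3, 1.91 for Rtp4, 4.25 for Phf11d, 3.48 for Irf7, 3.29 for Irgm2, 2.91 for Xaf1, 2.93 for Trim12a, 1.88 for Oas1g, 2.32 for Oas1a and 1.23 for Parp10. Among the lower genes it was -1.27 for Ccnb2, -1.78 for Cdc25c, -5.17 for Fcrls, -1.53 for Pif1, -1.20 for Phgdh, -1.16 for Ube2c, -1.51 for Arhgap19, -1.53 for Mad2l1, -1.31 for Racgap1, -1.35 for Cdca3, -1.64 for Ccnb1, -1.04 for Cdc20, -1.19 for Sapcd2, -1.86 for Gcat and -1.66 for Adk. For the higher genes the PBS tumors were lower after 2 doses than after 1 dose, by log2 changes of -3.60 (Irgm2) to -1.24 (Oas1g). For Usp18 (-2.51), Isg15 (-2.82), Rtp4 (-2.47), Irgm2 and Parp10 (-1.86) that fall was larger than the difference itself, and the exoCDN2 levels of all but Irgm2, which overlapped, were lower after 2 doses than after 1.

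The 2 tumors given 2 doses of CL656, at an amount that their labels do not give, entered no comparison. The median level of the 15 leading higher genes was 28.9 and 34.2 CPM in these tumors, above the 5.73 and 4.62 CPM of the tumors given 2 doses of PBS and below the 214 and 139 CPM of those given 2 doses of exoCDN2. In the tumors given 2 doses of CDN2 (20 µg) it was 204 and 246 CPM.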

How the results depend on the processing

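Counts of genes called higher and lower against PBS after 2 doses moved by over 1.5 times under these settings: 767 and 168 with PBS after 1 dose as the control, and 789 and 98 with only the 6 tumors given 2 doses in the fit, where 89.0% of the calls were higher against 78.2%. Leaving out 1 tumor gave 786 to 1606 higher and 116 to 498 lower genes. With no limit on the ratio 1191 were lower, and with a ratio over 4 77 were lower. The other settings stayed within 1.5 times (DESeq2 1604 and 460), and scaling moved the median of all genes by at most 0.03 on the log2 scale. For the difference between 2 doses and 1 dose (866 and 288), DESeq2 gave 463 lower genes, no filter 1486 and 559, and the fit without the 2 tumors given 2 doses of CDN2 512 lower, with 392 to 982 higher and 91 to 375 lower over the left-out tumors. Against CDN2 the range over left-out tumors was 271 to 3172 higher and 752 to 3085 lower. For PBS after 2 doses against 1 dose (8 and 178), DESeq2 gave 37 and 351, no filter 120 and 646, the fit without the CDN2 tumors 28 higher, and left-out tumors 2 to 7 and 83 to 367. The causes were not tested. With the replicate block, the same-numbered tumors shared a term, and 1442 higher and 382 lower genes were called against PBS, 793 and 266 for the dose difference, 1187 and 1922 against CDN2 and 7 and 179 between the PBS groups. Deviations of same-numbered tumors correlated at -0.07 for exoCDN2 and PBS after 2 doses and at 0.38 for exoCDN2 and CDN2 after 2 doses. Over all pairs of groups the range was -0.304 to 0.38. The labels name no pairing, so the numbers were not read as pairing, and a shared origin was not tested. Of 114 named genes, Car9 (-0.09), Dsp (-0.48) and Lgals7 (-0.65) had a log2 fold change of opposite sign with PBS after 1 dose as the control, and 42 lost their call under at least 1 setting. The settings without the CDN2 tumors and with PBS after 1 dose were chosen after seeing the data. Depth limits genes under the floor of 3 counts.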

Other observations

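Unloaded EVs were given once only, and their tumors entered no comparison of the report. The type I interferon-stimulated genes summed to 1249 and 1194 CPM in these tumors, below the 1831 and 1849 CPM of the tumors given PBS once. The interferon-γ-inducible GTPases and enzymes summed to 588 and 1114 CPM after unloaded EVs and to 2453 and 2858 CPM after PBS once. The change after unloaded EVs was not tested here.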
